A study of Mus musculus with 6 samples.

Results

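Transcripts of 8 regulators of G protein signalling were examined in the mouse aorta: Rgs2, Rgs3, Rgs4, Rgs5, Rgs7bp, Rgs10, Rgs12 and Rgs16. They were chosen by symbol, and all 8 were found among the 55453 genes of the deposited count table. RNA came from single aortae of mice with a floxed Srf allele in 1 copy (heterozygous, called controls here, 3 libraries) or in both copies (homozygous, 2 libraries). Srf encodes serum response factor, a transcription factor of muscle genes. Mice of both groups carried 1 copy of Itga8-CreERT2, a tamoxifen-inducible Cre recombinase under the Itga8 locus, and received 5 daily intraperitoneal doses of tamoxifen at 33 mg/kg, so the control had lost 1 Srf copy in recombined cells as well. Tissue was taken 10 days after the last dose, from the descending arch down to the renal branches. Endothelium and adventitia were described as stripped off, though markers of both were present (below). The sources used here do not give age or sex. Of the 6 samples in the labels, homozygous replicate 1 was not analysed here.

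G protein-coupled receptors act by loading the alpha subunit of a heterotrimeric G protein with GTP, and the signal lasts until that GTP is hydrolysed. RGS proteins carry a domain that speeds up this hydrolysis and so shorten the response. In vascular smooth muscle they limit the contraction evoked by agonists such as angiotensin, endothelin and noradrenaline. Rgs2, Rgs3, Rgs4, Rgs5 and Rgs16 belong to the subfamily of mostly small RGS proteins that act on the Gq and Gi classes. Rgs10 is another small RGS protein, known from immune cells and platelets. Rgs12 is a large scaffold with further interaction domains. Rgs7bp has no RGS domain of its own; it is a membrane anchor that binds the RGS proteins Rgs6, Rgs7, Rgs9 and Rgs11 together with the G protein subunit Gnb5.

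Among the members, 4 lie on chromosome 1 (GRCm38, GENCODE mouse release M21). Rgs5 spans chr1:169655501-169695813 on the plus strand and Rgs4 chr1:169741477-169747642 on the minus strand, so that they point at each other, with 45663 bases and 0 annotated genes between them. Rgs2 spans chr1:143999338-144004161 and Rgs16 chr1:153740349-153745468. Rgs3 lies at chr4:62559847-62704001, Rgs12 at chr5:34949445-35039644, Rgs10 at chr7:128373621-128418758 and Rgs7bp at chr13:104945904-105054930. The longest coding transcripts of Rgs2, Rgs4, Rgs5, Rgs10 and Rgs16 have 5 exons each, those of Rgs7bp, Rgs12 and Rgs3 have 6, 17 and 20. Exons of Rgs12 and Rgs16 overlap antisense genes by 467 and 236 bases, but those antisense genes held at most 0 and 2 counts in any library.

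RefSeq promoters (GRCm38.p6, 250 bases before to 50 after a gene's start) were searched for the CArG box, the sequence that serum response factor binds, which reads the same on both strands. None of the 10 promoter windows of the 8 genes held the CArG box, which 1.63% of 32851 mouse promoter windows held. With 1 mismatch allowed, 1 of the 10 windows held a match, that of Rgs2, against 21.1% of all windows. The 6 windows found for the smooth muscle markers held 0 exact matches and 2 with 1 mismatch. A match is a match of letters alone, and a window without it says nothing of more distant sites. The windows of the convergent neighbours Rgs5 and Rgs4, of Rgs7bp, and of Rgs2 are shown 5′ to 3′ because the results below turn on these genes; single capitals mark the first transcribed base, and the run of capitals in Rgs2 marks the match, whose first base lies 31 bases before the start.
Rgs5, chr1:169655251-169655550, plus strand: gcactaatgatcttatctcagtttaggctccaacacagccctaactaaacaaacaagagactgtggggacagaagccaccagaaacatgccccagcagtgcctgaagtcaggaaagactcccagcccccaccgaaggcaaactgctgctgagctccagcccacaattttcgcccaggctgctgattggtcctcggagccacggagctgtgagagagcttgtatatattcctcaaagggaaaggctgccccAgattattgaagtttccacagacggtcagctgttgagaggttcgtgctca
Rgs4, chr1:169747593-169747892, minus strand: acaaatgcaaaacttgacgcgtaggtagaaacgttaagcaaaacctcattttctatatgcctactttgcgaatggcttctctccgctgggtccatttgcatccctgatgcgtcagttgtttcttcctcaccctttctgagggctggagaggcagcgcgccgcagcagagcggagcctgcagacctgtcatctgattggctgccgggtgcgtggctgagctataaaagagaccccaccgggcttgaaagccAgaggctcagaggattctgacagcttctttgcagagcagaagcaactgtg
Rgs7bp, chr13:105054881-105055180, minus strand: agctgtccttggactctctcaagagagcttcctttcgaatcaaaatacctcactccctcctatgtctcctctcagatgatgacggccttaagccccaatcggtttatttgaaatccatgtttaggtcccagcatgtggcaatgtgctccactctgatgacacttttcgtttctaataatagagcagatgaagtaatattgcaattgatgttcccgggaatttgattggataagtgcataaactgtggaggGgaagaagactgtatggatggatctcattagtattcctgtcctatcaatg
Rgs2, chr1:144004100-144004399, minus strand: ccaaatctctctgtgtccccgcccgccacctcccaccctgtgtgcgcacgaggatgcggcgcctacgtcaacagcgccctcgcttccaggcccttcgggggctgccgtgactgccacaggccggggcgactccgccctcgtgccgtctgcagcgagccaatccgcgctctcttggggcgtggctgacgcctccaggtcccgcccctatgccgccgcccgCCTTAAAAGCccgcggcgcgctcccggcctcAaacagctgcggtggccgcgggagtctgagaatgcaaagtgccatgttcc

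The libraries held from 26177821 to 34311855 counts. Levels are in CPM, the counts of a gene scaled to the library total with TMM factors. Srf itself measured 56.1, 64.4 and 68.3 CPM in controls and 45.0 and 38.6 CPM in homozygous mice, a log2 fold change of -0.59 (SE 0.122). Its groups did not overlap, and its edgeR adjusted p was 0.115. Defining smooth muscle genes were present throughout: 8 markers of this cell type summed to between 23600 and 25200 CPM in controls and to 13840 and 14290 CPM in homozygous mice, and 7 of the 8 were lower without overlap. Summed markers of several other tissues did not overlap between the groups either, although edgeR called 0 of the genes in these lists at an adjusted p under 0.05. At an unadjusted p under 0.05, 7 macrophage, 7 adipocyte, 7 brown adipocyte and 4 skeletal muscle markers were higher, and DESeq2 called 5, 4, 3 and 0 of them. Of all genes, 9.04% were higher at that edgeR p and 6.75% lower, and DESeq2 called 3.33% higher. Without overlap, 17.4% of all genes were higher and 18.2% lower. The summed brown adipocyte list ranged from 268 to 686 CPM in controls against 1083 and 1000 CPM in homozygous mice (6 of 7 tested genes higher without overlap). The skeletal muscle list ranged from 9.19 to 554 CPM against 799.6 and 2190 CPM (6 of 8 higher). Adipocyte markers summed to between 1149 and 1695 CPM against 2188 and 2312 CPM (7 of 8 higher). Macrophage markers summed to between 269 and 377 CPM in controls and to 438 and 580 CPM in homozygous mice, 7 of 8 being higher without overlap. Endothelial markers, at 769 to 1016 CPM against 1160 and 419 CPM, overlapped. Lymphocyte markers summed to 15.4, 15.7 and 17.9 CPM in controls and to 18.9 and 30.2 CPM in homozygous mice, without overlap. Most of that sum was Ptprc, at 13.7, 14.5 and 16.7 CPM against 18.1 and 28.4 CPM. Of the 8 lymphocyte markers 3 were tested, of which 1, Ptprc, was higher without overlap and 0 were lower. Cd3d and Cd79a, not tested, were at 0 in heterozygous replicate 3. Adventitial fibroblast markers summed to 5640, 5493 and 3697 CPM in controls and to 5296 and 5450 CPM in homozygous mice. These sums overlapped, with 2 of 8 genes higher without overlap and 0 lower. Schwann cell markers, at 160 to 218 CPM against 216 and 210 CPM, overlapped in sum, with 5 of 8 genes higher and 1 lower without overlap. Erythrocyte markers were at 37.9, 297 and 87.7 CPM in controls and at 23.9 and 28.9 CPM in homozygous mice, with 5 of 5 genes lower at an unadjusted p under 0.05, 4 of them without overlap, and 0 called by edgeR or DESeq2. Mitochondrially encoded genes took 3.95%, 4.38% and 5.71% of counts in controls against 7.95% and 7.36%. The part of all these differences in the results on RGS genes was not tested. In bulk tissue, fewer cells of a type and less RNA per cell cannot be told apart.

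Rgs5 was by far the most abundant of the 8 in every library. Per kilobase of annotated exon it stood at 372, 337 and 212 CPM in controls and 175 and 318 CPM in homozygous mice. Rgs4 came next, at 32.5, 29.2 and 28.0 and at 15.1 and 22.2 CPM per kilobase. Rgs2 (8.45 to 13.3 over all libraries) and Rgs7bp (8.05 to 13.3) overlapped in range, and their order changed between libraries. Rgs2 was the higher in both homozygous libraries (12.1 and 11.5 against 8.05 and 9.55) and in heterozygous replicate 2 (13.3 against 10.4). Rgs7bp was the higher in heterozygous replicates 1 (13.3 against 8.45) and 3 (10.0 against 8.58). The difference between these genes was not tested. Rgs3 followed at 4.21 to 5.53 CPM per kilobase. Rgs10 (2.12 to 3.21) and Rgs12 (1.88 to 2.31) again overlapped in range. Within every library Rgs10 was the higher, by little in heterozygous replicate 1 (2.12 against 2.08). Rgs16 was the lowest at 0.136 to 0.306 CPM per kilobase. The exon length counts all annotated isoforms, which lowers the scaled level of genes with many isoforms, such as Rgs3 and Rgs12.

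**Figure D1:**
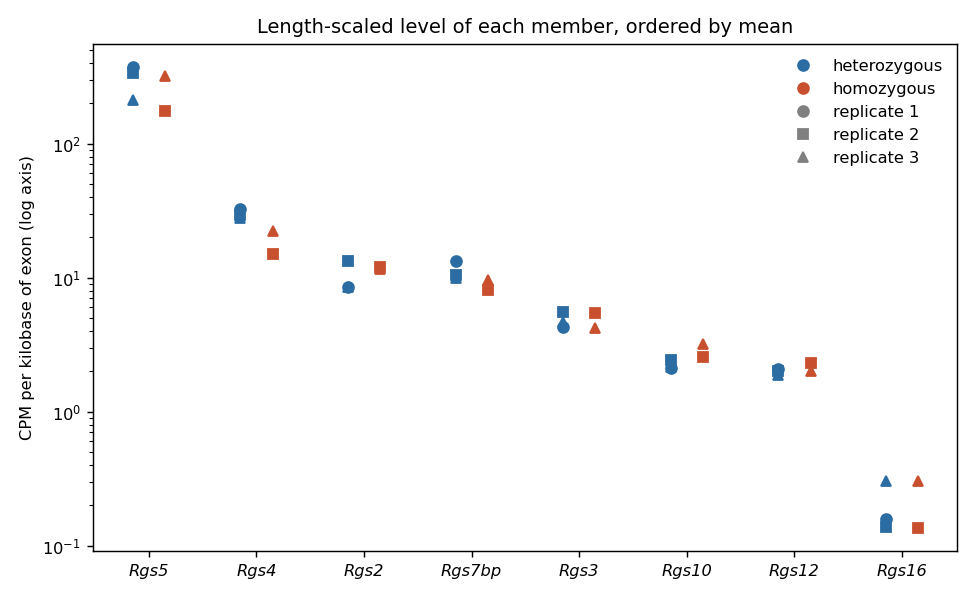
CPM per kilobase of annotated exon (log axis) for each gene in each library, ordered by mean level; colour gives the group and marker shape the replicate number. Rgs5, at 175 to 372, lies above Rgs4, at 15.1 to 32.5, in each of the 5 libraries.

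No member passed the test across all genes. Of the 8, 0 met an edgeR adjusted p below 0.05 in either direction, as did 0% of the 18192 genes tested. At an unadjusted p under 0.05, 2 of 8 were lower (Rgs4 and Rgs7bp), against 6.75% of all genes, and 0 of 8 were higher, against 9.04%. Groups did not overlap for 2 lower members, the same 2 genes, and for 1 higher member, Rgs10, against 18.2% and 17.4% of all genes, or 3 of 8 in either direction against 35.6%. DESeq2 called 1 member lower, Rgs4, and 0 higher, against 2.61% and 3.33% of the 15741 genes to which it gave an adjusted p; it gave none to Rgs16. edgeR with no low-count filter likewise called Rgs4 lower and 0 members higher, against 1.42% and 3.23% of the genes it tested. The median log2 fold change was 0.06 over the members and -0.02 over all genes tested, and 4 of 8 members lay below 0, against 52.8% of all genes.

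**Figure D2:**
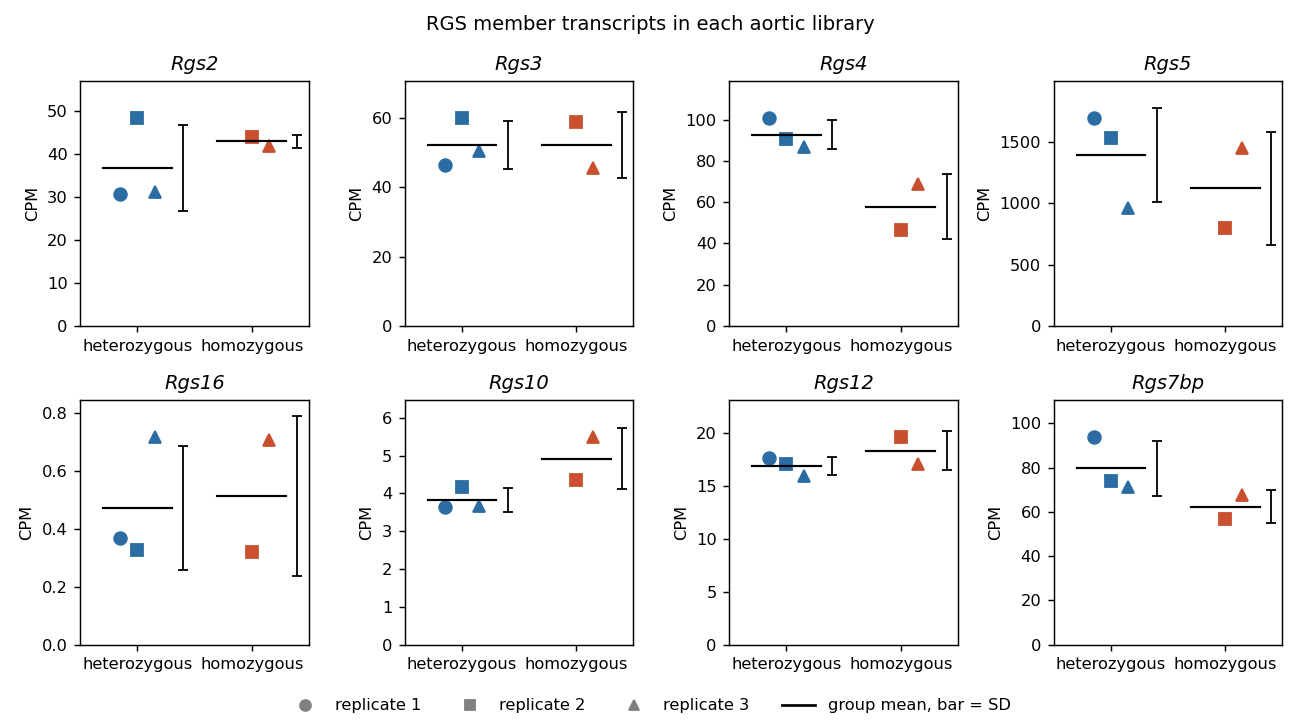
CPM of each gene in each library, with marker shape for the replicate number, a line at the group mean and a bar for the SD (n = 3 heterozygous, n = 2 homozygous). Rgs4 and Rgs7bp are lower in both homozygous libraries than in any heterozygous one, Rgs10 is higher in both, and the other genes overlap.

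Rgs4, which turns off Gi and Gq signals and is expressed in smooth muscle, heart and brain, showed the largest difference of the 8. It stood at 101, 90.5 and 86.9 CPM in controls and 46.7 and 68.9 CPM in homozygous mice. All heterozygous values lay above both homozygous ones, and homozygous replicate 2 was the lowest. The means were 92.7 ± 7.11 (SD, n = 3) and 57.8 ± 15.7 CPM (SD, n = 2), which the fit gave as a log2 fold change of -0.68 (SE 0.170, 95% interval -1.08 to -0.28). The edgeR unadjusted p was 0.00520 and the adjusted p 0.144. DESeq2 gave an adjusted p of 0.00964 and edgeR with no low-count filter 0.00221, so the call on Rgs4 rests on the tool and the filter. The log2 fold change was below 0 under each of the 19 alternatives run, which reuse the same libraries and are not separate checks. It ran from -0.99 without homozygous replicate 3 to -0.32 with libraries scaled to a list of mural cell markers without contractile genes. It was -0.43 without homozygous replicate 2. Scaling to those markers, called the mural list here, moved the median of all genes from -0.02 to 0.35. The list was not uniform: 6 of its 12 genes lay below 0 with a median log2 fold change of 0.04, while Cspg4 (means of 1353 and 906 CPM) and Mcam (793 and 427 CPM), which give much of its sum, were lower without overlap.

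Rgs5, a regulator known as a marker of pericytes and arterial smooth muscle, differed more between libraries of a group than between groups. It stood at 1691, 1531 and 963 CPM in controls and 796 and 1447 CPM in homozygous mice. The groups overlapped: heterozygous replicate 3 and homozygous replicate 2 were low, and the other 3 libraries were high. Sample descriptions give both low libraries neighbouring numbers, whose meaning the sources used here do not state. The coefficient of variation was 27.4% within the heterozygous and 41.0% within the homozygous group, against 0.499% from counting alone at 22520 to 55002 counts per library. From group means of 1395 ± 383 (SD, n = 3) and 1121 ± 460 CPM (SD, n = 2), the log2 fold change was -0.32 (SE 0.311, 95% interval -1.05 to 0.42), with an edgeR adjusted p of 0.676. It was -0.81 without homozygous replicate 3, -0.51 without heterozygous replicate 3, -0.15 without heterozygous replicate 1 and 0.05 without homozygous replicate 2. With the libraries scaled to the mural list it was 0.06.

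The neighbours Rgs5 and Rgs4 did not keep a fixed ratio. There were 16.8, 16.9 and 11.1 Rgs5 counts per Rgs4 count in the heterozygous and 17.0 and 21.0 in the homozygous libraries. Heterozygous replicate 3, low in Rgs5 but not in Rgs4, had the lowest ratio. Homozygous replicate 3, high in Rgs5 but not in Rgs4, had the highest.

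Rgs2, a regulator with a preference for Gq that is activated by the cGMP-dependent kinase and whose loss raises blood pressure in mice, overlapped between groups. It stood at 30.7, 48.3 and 31.1 CPM in controls and 44.0 and 41.9 CPM in homozygous mice. Heterozygous replicate 2 was the highest of all and the other heterozygous libraries the lowest. Its log2 fold change was 0.23 (SE 0.202, 95% interval -0.25 to 0.70) with an edgeR adjusted p of 0.642. It was 0.49 without heterozygous replicate 2, 0.14 without heterozygous replicate 3 and 0.11 without heterozygous replicate 1. With libraries scaled to the mural list it was 0.61 (edgeR adjusted p = 0.0458); relative to the median of all genes, which that scaling also moved, Rgs2 lay about as far up as before.

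Rgs3, a regulator with long and short isoforms, stood at 46.2, 59.8 and 50.5 CPM in controls and 58.9 and 45.5 CPM in homozygous mice. The homozygous values lay at the upper and lower ends of the heterozygous range, and the fold change came to 0.00 on the log2 scale (edgeR adjusted p = 0.999), with a 95% interval from -0.36 to 0.36.

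Rgs16 was close to the limit of detection, with 9 to 23 counts per library. It stood at 0.369, 0.326 and 0.716 CPM in controls and 0.318 and 0.706 CPM in homozygous mice. Replicate 3 was the highest in both groups, but counting error alone gave heterozygous replicate 3 an exact 95% Poisson interval of 0.424 to 1.13 CPM and heterozygous replicate 1 one of 0.191 to 0.645. With a log2 fold change of 0.18 (SE 0.510, 95% interval -1.03 to 1.38), no difference was detectable at this depth.

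Rgs10 stood at 3.63, 4.18 and 3.66 CPM in controls and 4.35 and 5.50 CPM in homozygous mice. Both homozygous values lay above all heterozygous ones, the nearer by a small margin. Rgs10 gave a log2 fold change of 0.36 (SE 0.187, 95% interval -0.08 to 0.81) with an edgeR adjusted p of 0.406, and 0.19 without homozygous replicate 3.

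Rgs12 varied least. It stood at 17.7, 17.0 and 15.9 CPM in controls and 19.6 and 17.0 CPM in homozygous mice, and the 5 libraries spanned 1.23-fold from lowest to highest. The groups overlapped, with a log2 fold change of 0.12 (SE 0.113, 95% interval -0.15 to 0.39) and an edgeR adjusted p of 0.666. It was 0.01 without homozygous replicate 2 and 0.22 without homozygous replicate 3.

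Rgs7bp, the membrane anchor, was lower in both homozygous libraries, though its log2 fold change was 0.01 with the libraries scaled to the mural list. It stood at 93.9, 73.9 and 71.1 CPM in controls and 56.9 and 67.6 CPM in homozygous mice. The groups did not overlap, though the highest homozygous value came close to the lowest heterozygous one. From means of 79.6 ± 12.4 (SD, n = 3) and 62.3 ± 7.54 CPM (SD, n = 2), the log2 fold change was -0.35 (SE 0.149, 95% interval -0.71 to -0.0026), with an edgeR unadjusted p of 0.0487 and an adjusted p of 0.313. It was -0.22 without heterozygous replicate 1. The genes of the proteins that Rgs7bp anchors overlapped between groups. Rgs7 stood at 35.9, 34.04 and 40.4 CPM in controls and 34.8 and 37.0 CPM in homozygous mice, a log2 fold change of -0.03 (SE 0.105, 95% interval -0.28 to 0.22). Rgs6 gave 0.00 (SE 0.204), Rgs11 -0.17 (SE 0.170) and Gnb5 0.09 (SE 0.117). The difference between Rgs7bp and its partners was not tested.

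**Figure D3:**
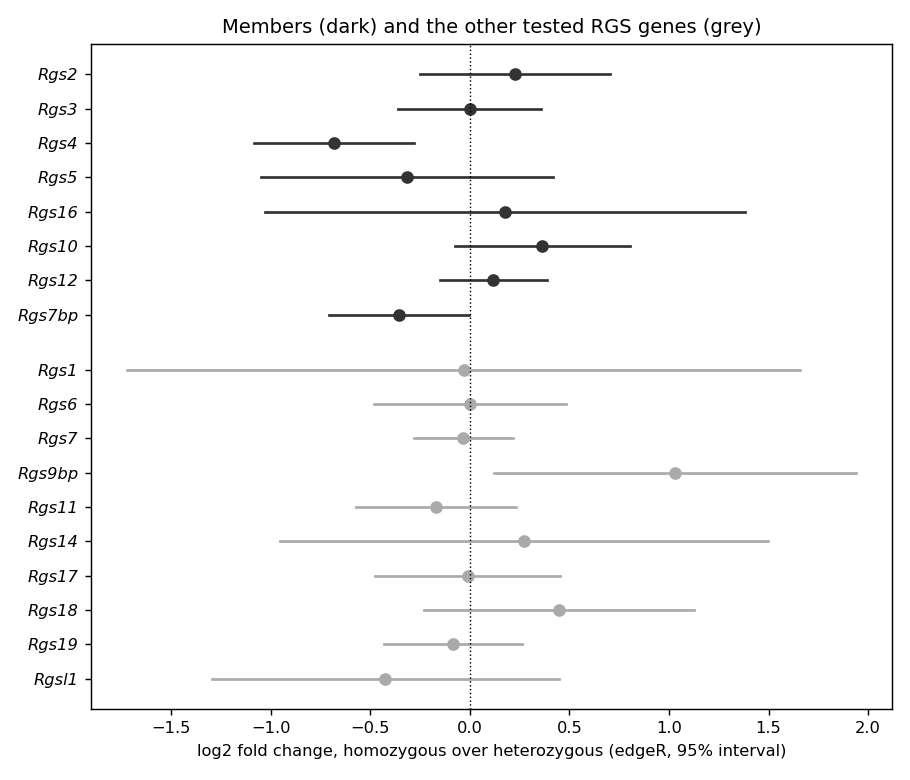
edgeR log2 fold changes (homozygous over heterozygous) with 95% intervals for the 8 members (dark) and the 10 other RGS genes that passed the low-count filter (grey). Rgs4, Rgs7bp and Rgs9bp are the genes whose interval lies on 1 side of 0.

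Together the 8 genes summed to 1984, 1825 and 1223 CPM in the heterozygous and to 1027 and 1694 CPM in the homozygous libraries, an order set by Rgs5. Rgs5 took 85.2%, 83.9% and 78.8% of the summed member counts in the heterozygous and 77.5% and 85.4% in the homozygous libraries. Exact Clopper-Pearson 95% intervals, which cover counting error only, were 78.3% to 79.2% for heterozygous replicate 3 and 77.0% to 78.0% for homozygous replicate 2. Rgs4 took 5.07%, 4.96% and 7.10% in the heterozygous and 4.55% and 4.07% in the homozygous libraries, without overlap. Rgs10 was also without overlap, at 0.183%, 0.229% and 0.299% against 0.423% and 0.325%. Rgs7bp, which separated in CPM, overlapped at 4.73%, 4.05% and 5.81% against 5.55% and 3.99%, as did the remaining members. These shares reuse the counts behind the CPM values and were not tested. The share of all genes that separate in this way was not computed.

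Set against the smooth muscle genes, which were themselves lower, Rgs4 no longer separated the groups. Per 1000 CPM of the summed smooth muscle list, Rgs4 stood at 4.12, 3.59 and 3.68 CPM in controls and 3.27 and 4.97 CPM in homozygous mice. On the same scale Rgs2 stood at 1.26, 1.92 and 1.32 CPM and at 3.08 and 3.02 CPM. Relative to the smooth muscle markers, whose sum was lower in both homozygous libraries, Rgs4, Rgs5 and Rgs16 overlapped between groups. Rgs2, Rgs3, Rgs7bp, Rgs10 and Rgs12 were all higher in both homozygous libraries on this scale. The lower sum raises any gene whose CPM is unchanged. Rgs3, with a log2 fold change of 0.00 in CPM, stood at 1.90, 2.37 and 2.14 against 4.12 and 3.28 CPM on this scale. The share of all genes that separate in this way was not computed, so the separation is not a result about these members. These ratios were chosen after the values were seen and were not tested.

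**Figure D4:**
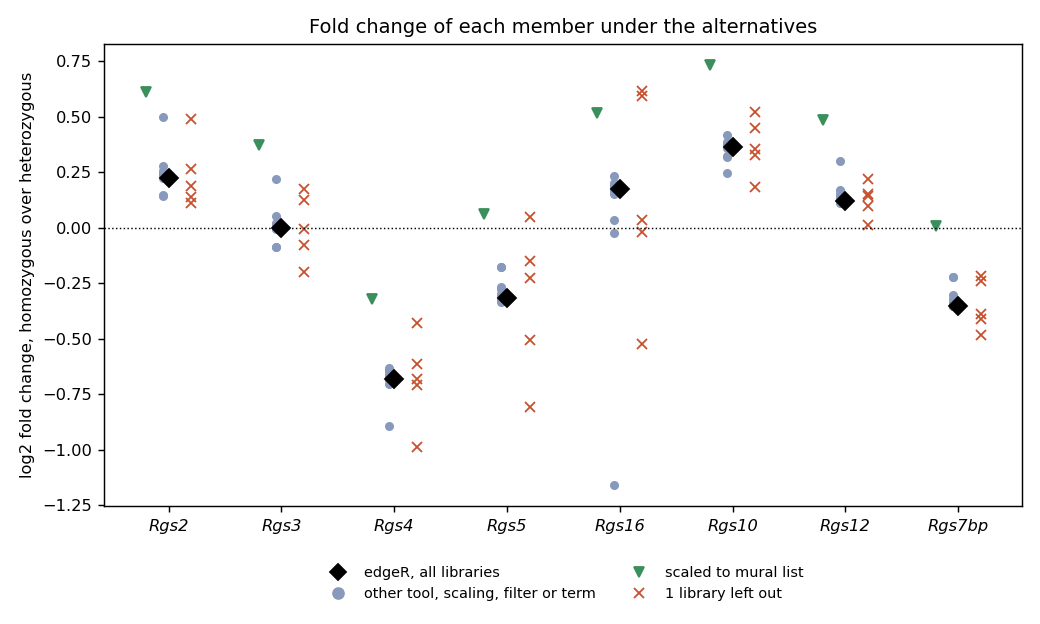
log2 fold change (homozygous over heterozygous) of each member in edgeR with all libraries (diamonds), under other tools, scalings, filters or model terms (circles), scaled to the mural list (triangles) and with 1 library left out (crosses). Rgs4 stays below 0 throughout, from -0.99 to -0.32, while Rgs5 runs from -0.81 to 0.06.

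Of the 16 other genes of the RGS family, 10 passed the low-count filter. The other 6 (Rgs8, Rgs9, Rgs13, Rgs20, Rgs21 and Rgs22) held at most 10 counts in any library, and Rgs8 and Rgs21 held 0 throughout. edgeR called 0 of the 10 at an adjusted p under 0.05, and DESeq2 called 0 of those to which it gave an adjusted p. At an edgeR unadjusted p under 0.05, 1 of the 10 was higher and 0 were lower, against 9.04% and 6.75% of all genes. That gene was Rgs9bp, an anchor of Rgs9 known from photoreceptors, at 0.584, 0.652 and 0.278 CPM in controls and 1.17 and 0.952 CPM in homozygous mice, a log2 fold change of 1.03 (SE 0.385; edgeR adjusted p = 0.265). Rgs18, known from platelets and blood cells, gave 0.45 (SE 0.286). Like Rgs9bp it was higher without overlap, as were 17.4% of all genes. Rgs17 (-0.01, SE 0.197), Rgs19 (-0.09, SE 0.147), Rgs1 (-0.03, SE 0.715), Rgs14 (0.27, SE 0.519) and Rgsl1 (-0.42, SE 0.369) overlapped between groups. Over the 10 genes the median log2 fold change was -0.02, as over all genes.

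The pathway around the RGS genes was described with lists of receptors, G protein subunits, other proteins with an RGS domain, and effectors. In each of these lists edgeR called 0 genes at an adjusted p under 0.05. The list counts stand against these shares of all genes: 9.04% were higher and 6.75% lower at an edgeR unadjusted p under 0.05. DESeq2 called 3.33% higher and 2.61% lower. Without overlap, 17.4% were higher and 18.2% lower. Of 24 tested vasoactive receptors, 4 were higher and 2 lower at an unadjusted p under 0.05, and DESeq2 called 1 higher and 1 lower. The endothelin receptor Ednrb stood at 11.0, 10.9 and 10.1 CPM in controls and 17.4 and 18.5 CPM in homozygous mice, a log2 fold change of 0.75 (SE 0.107; edgeR adjusted p = 0.104; DESeq2 adjusted p = 7.46e-05). The thromboxane receptor Tbxa2r gave -0.56 (SE 0.110; edgeR adjusted p = 0.111; DESeq2 adjusted p = 0.00457). The abundant thrombin receptor F2r gave -0.17 (SE 0.0956) and the alpha-1D adrenergic receptor Adra1d -0.51 (SE 0.163).

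Of the G alpha subunits, on which RGS proteins act, none met an adjusted p under 0.05 by edgeR or DESeq2. Of 13 tested, 1 was lower and 0 higher at an unadjusted p under 0.05, and the median was -0.03. Gnai1, a Gi subunit, stood at 104, 102 and 100.1 CPM in controls and 68.3 and 90.3 CPM in homozygous mice, a log2 fold change of -0.36 (SE 0.130; edgeR adjusted p = 0.248). Its groups did not overlap, and homozygous replicate 2 was the lowest, as for Rgs4. Gnai2 gave -0.22 (SE 0.0970), Gnas 0.08 (SE 0.132) and the low Gna15 0.35 (SE 0.223).

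Among 11 tested beta and gamma subunits, 1 was higher and 1 lower at an unadjusted p under 0.05, and DESeq2 called 1 higher. Gng2 gave 0.71 (SE 0.173; DESeq2 adjusted p = 0.0316), Gnb4 -0.32 (SE 0.101) and Gnb1 -0.09 (SE 0.0959). Among 14 other proteins with an RGS domain, Grk3, a receptor kinase, was at 42.9, 50.1 and 37.3 CPM in controls and 63.4 and 62.6 CPM in homozygous mice. Its log2 fold change was 0.54 (SE 0.130; edgeR adjusted p = 0.139; DESeq2 adjusted p = 0.0216), and it was the 1 gene of that list past an unadjusted p of 0.05. Grk6 gave -0.22 (SE 0.112).

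Effectors had the lowest median of these lists, -0.19 over 18 genes, with 8 lower and 1 higher at an unadjusted p under 0.05 and 5 lower by DESeq2. Plcb4, a phospholipase C that Gq activates, stood at 521, 469 and 582 CPM in controls and 335 and 326 CPM in homozygous mice. Its log2 fold change was -0.66 (SE 0.119; edgeR adjusted p = 0.104; DESeq2 adjusted p = 4.24e-05). The adenylyl cyclase Adcy5 gave -0.64 (SE 0.170) and the kinase Rock1 -0.85 (SE 0.190). Itpr2, an IP3 receptor, gave 0.36 (SE 0.144). Whether any list differed from the RGS genes was not tested.

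**Figure D5:**
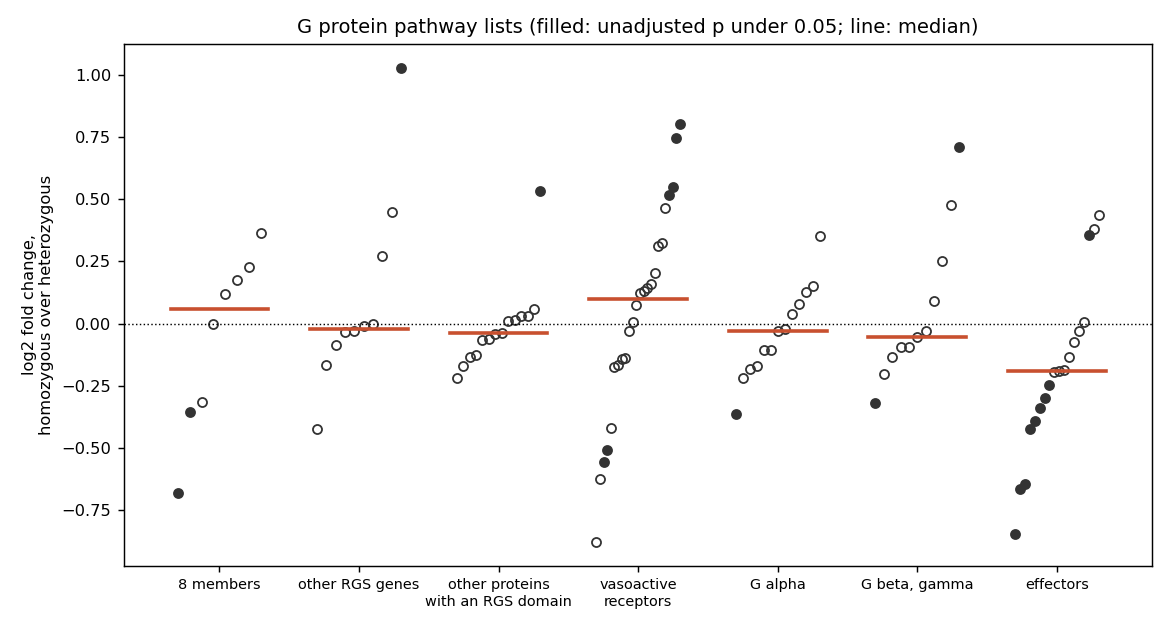
log2 fold change (homozygous over heterozygous) of each tested gene in the 8 members and 6 lists around them, with filled points at an unadjusted edgeR p under 0.05 and a line at the list's median. The effectors' median lies at -0.19 and that of the members at 0.06.

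For 3 members the genes with the most similar pattern over the 5 libraries were found among those with a mean of at least 5 CPM, by the root mean square difference of centred log2 CPM. Closest to Rgs5 were Hes1 (0.145), Fam81a (0.147) and Vipr2 (0.159). Hes1, a target of Notch signalling, stood at 12.8, 12.2 and 8.75 CPM in controls and 7.81 and 11.3 CPM in homozygous mice, low in the same pair of libraries as Rgs5. Closest to Rgs4 were Uchl1 (0.0751), Cbr2 (0.117) and Dstn (0.123). Dstn, the actin filament severing protein destrin, stood at 1269, 1273 and 1055 CPM in controls and 629 and 758 CPM in homozygous mice. Closest to Rgs10 were Pank3 (0.0297), Pex13 (0.0394) and Pepd (0.0485). For Rgs5 and Rgs4, 11559 genes were searched, and likeness over 5 libraries was not tested.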

How the data were processed

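Poly(A) RNA of single aortae was sequenced from stranded libraries, per the labels. The deposited values are raw counts per gene symbol, which the authors made on GRCm38 with fastp 0.20.0, with STAR 2.7.0f, and with featureCounts (Subread 1.6.4), per the submitters' processing notes; neither the annotation nor whether counting used strand is given in the sources used here. The table holds 5 libraries; per the design text, the submitters left out 1 homozygous sample as an outlier.

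The filter filterByExpr kept 18192 genes, which were scaled with TMM factors and fitted in edgeR 4.0.16 under R 4.3.3 (quasi-likelihood F test on group alone, 3 residual and 4.01 prior degrees of freedom), with Benjamini-Hochberg adjustment over all genes and a threshold of 0.05. The SE is the log2 fold change divided by the square root of F. The p-values reflect only the spread among these samples, each from a separately frozen aorta. No pair of libraries within a group agreed within sampling noise (chi-square per degree of freedom from 20.0 to 55.1). The tests were checked on simulated data.

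The members and lists were chosen with earlier results of these data known. Named genes were the members, the tested RGS genes, the 2 most abundant genes and the lowest p in each direction of each pathway list, and the 3 nearest genes to the most abundant member and to those with the highest and the lowest log2 fold change; 2 abundant genes of the list of other proteins with an RGS domain are not reported here on their own. Alternatives were other size factors (among them the summed counts of 12 mural cell markers without contractile genes), DESeq2 1.42.0, limma-voom (limma 3.58.1), newer and robust quasi-likelihood fits, other low-count filters, a replicate block, a term for the label numbers, omission of mitochondrial, skeletal muscle and fat genes, and each library left out. Gene positions and exon lengths came from GENCODE, whose names include 54510 of the 55453 symbols.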

Additional observations from a re-analysis of the deposited data

How the results depend on the processing

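edgeR with all libraries called 0 members and 0 genes in all. Members were called under 3 of the 19 alternatives: 1 lower (Rgs4) with DESeq2 and 1 lower (Rgs4) with no low-count filter, and 1 higher (Rgs2) with libraries scaled to the mural list. Genes called higher and lower were 524 and 411 with DESeq2, 982 and 432 with no low-count filter, 2315 and 12 with the mural scaling, 8 and 1 with the label number term, and 0 and 1 with limma-voom. With each library left out in turn, from 0 to 139 were higher and from 0 to 9 lower (139 and 9 on leaving out heterozygous replicate 2, 1 and 0 on leaving out homozygous replicate 3), and 0 members were called. Where a homozygous library is left out, the remaining one is taken to vary as the controls do. The replicate numbers are not stated to pair mice. Deviations of same-numbered libraries correlated at -0.01 and -0.194, and those of the crossed pairs at 0.01 and 0.194. The 2 homozygous deviations mirror each other by construction, so these values cannot settle the pairing. With the replicate block 3 genes were called higher and 2 lower, and 0 members. A crossed pairing, chosen after seeing the data, called 0.

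Rgs2, Rgs4, Rgs10 and Rgs12 kept their direction under all 19 alternatives. The alternatives reuse the same libraries and are not separate checks. With the label number term the group difference comes from heterozygous replicate 3 and homozygous replicate 2 alone. Only these have neighbouring numbers across the groups. Under the replicate block and the crossed pairing, heterozygous replicate 1 has no partner and does not enter the group difference. Rgs3, near 0, turned to 0.0064 with RLE size factors, 0.0205 with upper-quartile factors, 0.053 with library totals, 0.371 with the mural scaling, 0.0005 with DESeq2, 0.0135 with no filter, 0.01 with the stricter filter and 0.221 with the label number term, and ran from -0.201 to 0.175 with a library left out. Rgs16, at few counts, turned to -0.0261 with the replicate block and -1.16 with the label number term, and ran from -0.525 to 0.614 with a library left out. Rgs5 ran from -0.808 to 0.0502 with a library left out and turned to 0.0599 with the mural scaling, as Rgs7bp did to 0.0076. The mural list's own summed level was 3264 to 3935 CPM in heterozygous and 2749 and 2809 CPM in homozygous libraries. Per kilobase of exon, Rgs5 took 83.0% and 82.5% of the members' summed level in the 2 groups, against 82.6% and 81.5% of counts. As point values from few libraries, the spread within a group exceeded counting error for every member except Rgs10. For Rgs10 the counting error of 8.75% lay above its spread of 8.12% among controls and below that of 16.5% in homozygous mice. The margin was small for Rgs12 among controls (5.21% against 4.34%) and for Rgs2 in homozygous mice (3.53% against 2.88%). Counting error was largest for Rgs16, at 26.2%, where the Poisson intervals given above overlapped. Rgs16 was not tested under the stricter filter.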
